A study of Mus musculus with 20 samples.

Results

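The genes described here are the neighbours of *Wwp2*, the gene for a NEDD4-family E3 ubiquitin ligase, on mouse chromosome 8. They were chosen by position and level alone. *Wwp2* spans bases 107436365 to 107558595 of chromosome 8 (GRCm38, GENCODE release M21), and every gene overlapping 5 Mb on either side, from 102436365 to 112558595, was taken if it had at least 5 counts in at least 5 libraries. The window held 280 annotated genes, of which 277 were in the count table, 159 passed the count minimum and 118 did not. *Wwp2* itself and *Cdh1*, *Cdh5*, *Cdh16*, *Has3* and *Nqo1* were left out by name, which left 153 flanking genes of 20407 genes tested in the series. Of the 153, 100 lay on the side of lower coordinates, 52 on the side of higher coordinates, and 1 lay inside *Wwp2*. They comprised 127 protein-coding genes, 8 antisense genes, 6 processed pseudogenes, 5 long intergenic RNAs and 7 genes of other kinds.

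The libraries were made from poly-A RNA of primary renal myofibroblasts at passage 2, which had grown out of minced kidney pieces of C57BL/6J mice. WT and WWP2-/- mice were littermates from crosses of heterozygous parents, and the WWP2-/- line lacks the full-length and N isoforms of the protein, with no Cre or cell type restriction described. Cells of each genotype were either untreated or treated with TGFβ1, a cytokine that drives myofibroblast activation, with 5 libraries in each of the 4 groups. The labels give no age, dose or duration, and the dose and duration in the study's methods are not repeated here. The study's methods state in general that a data point stands for cells of 1 mouse, but the labels name no animal, so that *P* values measure the spread between these libraries.

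A targeted allele is inherited together with the DNA around it, and a changed locus can alter transcription nearby, so that the genes next to a knocked-out gene are commonly examined beside the gene itself. This stretch of chromosome 8 is dense in genes used by most cells, including factors for ribosome assembly, RNA splicing and telomere capping, and it also holds a few genes with narrow expression, such as the acute-phase protein haptoglobin and the renal glucocorticoid-inactivating enzyme encoded by *Hsd11b2*. Levels are given as CPM, the counts of a gene relative to the library total as scaled by edgeR's TMM method. Exon bases were shared with another annotated gene by 59 members, among those named below by *9430091E24Rik*, *Acd*, *B3gnt9*, *Chtf8*, *Cog8*, *Ctcf*, *Dpep2*, *Dus2*, *Il34*, *Gm15895*, *Prmt7*, *Ripor1*, *Smpd3*, *Terf2ip* and *Tmem208*, and their counts are uncertain to that extent. Fold changes are on the log2 scale, WWP2-/- against WT unless stated otherwise, and a gene was called changed at an adjusted *P* below 0.05 over all 20407 genes.

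*Wwp2* followed the labels. Untreated WT libraries had 50.2, 54.3, 59.8, 51.1 and 50 CPM and untreated WWP2-/- libraries 18.5, 21.3, 22.7, 20.6 and 19.5 CPM. With TGFβ1, WT libraries had 50.8, 52.0, 58.4, 53.5 and 52.9 CPM and WWP2-/- libraries 21.1, 19.9, 17.0, 17.5 and 19.6 CPM. Every WWP2-/- library was below every WT library, and part of the transcript signal remained. The log2 fold change was −1.37 untreated (SE 0.0841, adjusted *P* = 4.32e-08) and −1.49 with TGFβ1 (SE 0.0844, adjusted *P* = 1.05e-08).

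Library totals were between 47520759 and 73063697 counts (median 55863325). Untreated WWP2-/- replicate 3 and TGFβ1-treated WWP2-/- replicate 1 stood apart together, with a correlation of 0.95 between their deviations from their group means over 20407 genes. *Acta2*, the smooth muscle actin that defines myofibroblasts, was at 38.9 and 50.4 CPM in them and at 1020 CPM or more in the other 18 libraries. All 10 fibroblast and myofibroblast markers averaged at least 1 CPM in each group, and their summed level with TGFβ1 was 9720 to 35200 CPM in WT and 4250 to 13400 CPM in WWP2-/- libraries. In treated WWP2-/- cells the averages of *Pdgfra* and *Lum* rested on replicate 1, at 105 and 5.86 CPM. The other treated WWP2-/- libraries had 0.548 to 0.948 and 0.0148 to 0.101 CPM. In untreated WWP2-/- cells that of *Lum* rested on replicate 3, at 4.99 CPM beside 0.0431 to 0.74 CPM. *Xist*, the transcript of the inactive X chromosome, exceeded 1 CPM in 4 of 5 libraries of each WT group, in 2 of 5 untreated WWP2-/- libraries and in 1 of 5 treated WWP2-/- libraries. The Y-linked *Ddx3y* exceeded 1 CPM in all 9 libraries without *Xist* and also in 5 libraries with it (in WWP2-/- cells untreated replicate 1, and in WT cells replicate 1 of both treatments with untreated replicates 2 and 5). The pair that stood apart had *Xist* at 291 and 225 CPM and no *Ddx3y* count, and no other WWP2-/- library had *Xist* without *Ddx3y*. These transcripts were thus partly aligned with genotype, and splits by *Xist* below put libraries with both transcripts in the class with *Xist*. *Pdgfra*, *Dcn* and *Lum* were at 0.543 to 1.87, 6.69 to 52.1 and 0.0148 to 0.202 CPM in libraries without *Xist*. In those with it they were at 14.4 to 179, 201 to 1450 and 0.74 to 91.6 CPM. Splits by *Xist* are thus also splits by these markers, whereas the other fibroblast and myofibroblast markers overlapped between the classes. The part of these differences in the results below was tested only where a value is given, and in bulk RNA fewer cells of a type and less RNA per cell cannot be told apart.

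The closest gene on each side of *Wwp2* showed little difference between genotypes. *Nob1*, which encodes a nuclease for the small ribosomal subunit, lies 11.3 kb away at 107412486 to 107425051. It had 30.5, 32.2, 30.4, 39.4 and 33.9 CPM in treated WT libraries and 52.0, 31.3, 27.5, 34.6 and 37.4 CPM in treated WWP2-/- libraries. The groups overlapped, with 1 WWP2-/- library above and 1 below all WT libraries, and the highest value was replicate 1 of the pair that stood apart. The log2 fold change was 0.14 with TGFβ1 (95% interval −0.20 to 0.47, adjusted *P* = 0.651) and 0.15 untreated (−0.19 to 0.49, adjusted *P* = 0.684).

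*Psmd7*, the nearest gene on the other side, lies 21.8 kb from *Wwp2* at 107580381 to 107588464 and encodes a lid subunit of the proteasome. It had 150, 155, 146, 203 and 164 CPM in treated WT libraries and 190, 151, 151, 181 and 157 CPM in treated WWP2-/- libraries, so that every WWP2-/- value lay within the WT range. Untreated, it was at 148 to 187 CPM in WT and 140 to 194 CPM in WWP2-/- libraries. Its log2 fold change was 0.02 with TGFβ1 (95% interval −0.21 to 0.25) and 0.00 untreated (−0.23 to 0.24), and changes larger than 0.25 lay outside both intervals.

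The pseudogene *Rps26-ps1*, 449 bases on the minus strand (107439131 to 107439579), lies inside *Wwp2* and shares no annotated exon base with it. It had 3.53, 4.49, 3.81, 8.14 and 4.66 CPM in treated WT libraries and 4.82, 2.49, 2.32, 2.34 and 3.17 CPM in treated WWP2-/- libraries. Untreated, it had 4.82, 5.06, 6.15, 3.15 and 4.82 CPM in WT and 2.91, 2.91, 3.22, 2.57 and 3.08 CPM in WWP2-/- libraries. In each comparison 4 of 5 WWP2-/- libraries were below all WT libraries. The log2 fold changes were −0.70 with TGFβ1 (SE 0.25, adjusted *P* = 0.0946) and −0.71 untreated (SE 0.25, adjusted *P* = 0.208), and neither passed in the fit of all libraries. With TGFβ1 the pseudogene was called by DESeq2 and without the pair that stood apart. It was also called in 1 of 10 fits without 1 library, that without WWP2-/- replicate 1 (adjusted *P* = 0.0275). A processed pseudogene is a copy of another gene's transcript, so that its count may hold reads of the parent gene, and without a stated strand setting it may also hold unspliced *Wwp2* RNA. Neither share was tested.

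The other members among the 5 nearest on each side were, like *Nob1* and *Psmd7*, not called in the fit of all libraries. *Nfat5*, the transcription factor of the hypertonic response (56.8 kb away), had log2 fold changes of 0.04 with TGFβ1 (95% interval −0.50 to 0.58) and 0.24 untreated (−0.30 to 0.78). *Cyb5b*, a cytochrome b5 of the mitochondrial outer membrane (248.9 kb), had 0.07 (−0.23 to 0.36) and 0.15 (−0.15 to 0.44). *Terf2*, a telomere-capping protein (339.8 kb), had 0.12 (−0.18 to 0.41) and 0.17 (−0.12 to 0.47). All 3 overlapped between genotypes. *Nip7*, a factor of ribosome assembly (375.4 kb), was at 0.23 (−0.04 to 0.51) and 0.11 (−0.16 to 0.39). On the higher side, *Zfhx3*, a large homeodomain transcription factor (384.0 kb), was at 0.43 (−0.08 to 0.93) and 0.21 (−0.30 to 0.71). Its treated WWP2-/- libraries had 34.3, 42.4, 89.4, 34.8 and 30.0 CPM against 27.5 to 39.7 CPM in WT, so that replicate 3 alone was far above the rest. The pseudogene *Gm1943* (1782.1 kb), the splicing helicase gene *Dhx38* (1989.4 kb) and the spliceosome-associated *Txnl4b* (2007.3 kb) had −0.49, −0.05 and 0.18 with TGFβ1 and −0.15, 0.07 and 0.04 untreated, and none passed.

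**Figure D1:**
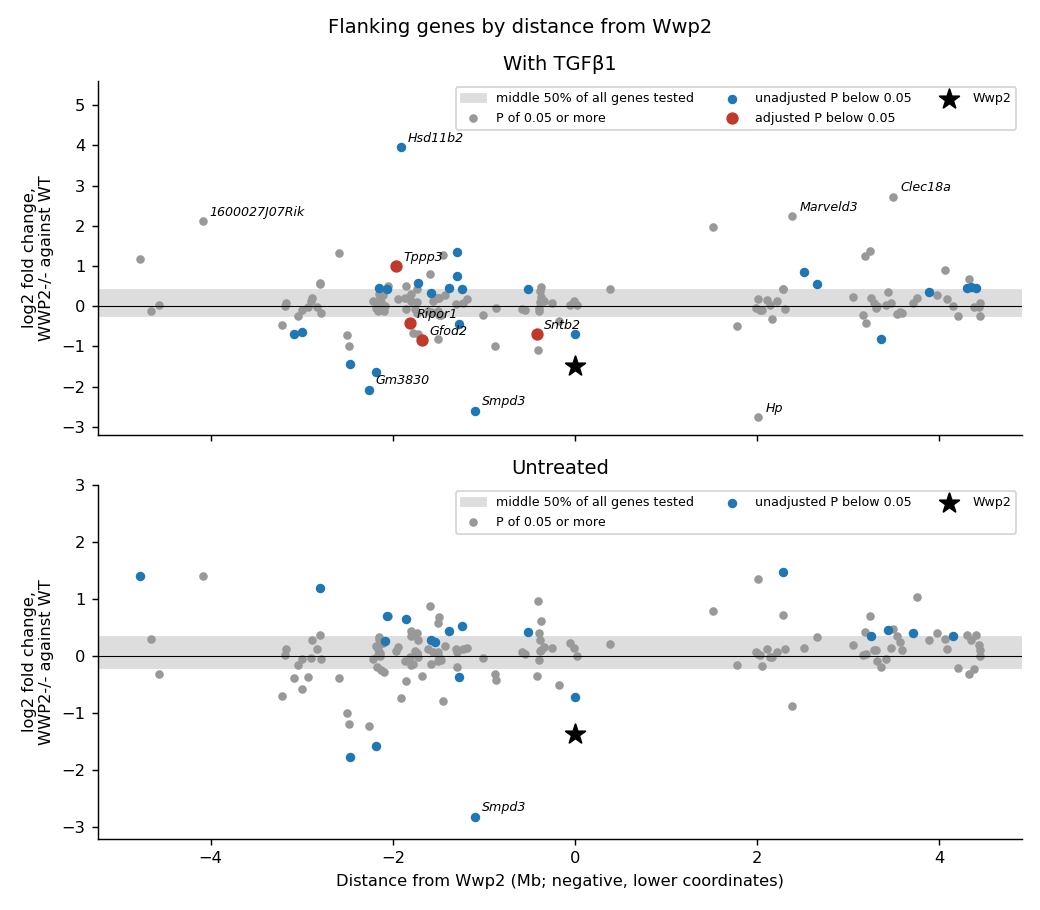
Log2 fold change of WWP2-/- against WT libraries (vertical axis) of the 153 flanking genes by distance from *Wwp2* in Mb (horizontal axis, negative for lower coordinates), with TGFβ1 (top) and untreated (bottom). The star is *Wwp2*, the grey band holds the middle 50% of all genes tested, and genes past 2 in size or with an adjusted *P* below 0.05 are labelled. The 4 called genes are all on the lower side with TGFβ1, and no gene was called untreated.

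Set out by distance, the fold changes of the flanking genes did not grow toward *Wwp2*. The 21 members within 1 Mb had a median log2 fold change of 0.022 with TGFβ1 and 0.112 untreated, beside 0.070 and 0.107 for all 153 members, 0.060 and 0.097 for the 935 genes tested elsewhere on chromosome 8, and 0.050 and 0.076 for all genes tested. With TGFβ1 the median size of the fold change, whatever its sign, was 0.185 for the 16 members within 0.5 Mb, 0.091 for the 5 between 0.5 and 1 Mb, 0.271 for the 45 between 1 and 2 Mb and 0.213 for the 87 beyond 2 Mb. Over all members it was 0.225, against 0.298 for the rest of chromosome 8 and 0.322 for all genes tested. Untreated, the medians were 0.225, 0.319, 0.155 and 0.260 by increasing distance, 0.243 over all members and 0.275 over all genes. Apart from the 5 members at 0.5 to 1 Mb untreated, each of these medians was below that of all genes tested. Genes of low level enter the figure for all genes. At a mean of at least 1 CPM, the median size with TGFβ1 was 0.189 for 121 members and 0.247 for 13519 genes tested. Untreated, it was 0.186 and 0.221.

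The mean level of the 21 nearest members in a library, as log2(CPM + 2), overlapped between groups. It was 4.37 to 4.46 in untreated WT, 4.32 to 4.58 in treated WT, 4.38 to 4.45 in untreated WWP2-/- and 4.38 to 4.47 in treated WWP2-/- libraries. The ranges overlapped throughout, and the SD between libraries of a group was 0.060. The medians were 4.451, 4.513, 4.435 and 4.433 in the same order. With TGFβ1, WT replicates 2, 4 and 5 (4.513, 4.576 and 4.556) were above every WWP2-/- library, and WT replicates 1 and 3 (4.468 and 4.317) were not. This difference was not tested.

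Of the 153 members, 4 were called between genotypes with TGFβ1, which is 2.61% of them, whereas 6.07% of all genes tested were called in this comparison. At an unadjusted *P* below 0.05 there were 30 members (19.6%, against 24.7% of all genes), and the Wald test of DESeq2 called 14 (9.15%, against 13.1%). Libraries of both genotypes did not overlap for 5 members, *Ces2g*, *Tppp3*, *Gm38250*, *Smpd3* and *Cmtr2* (3.27%, against 5.67% of all genes). Each share was below that of the whole transcriptome. Without the pair of WWP2-/- libraries that stood apart, 21 members were called, when 16.9% of all genes were called, and the 4 genes named next were among them. In that count no treated WWP2-/- library had *Xist* above 1 CPM and 4 of 5 WT libraries did. Genotype could thus hardly be separated from sex of cells or from the fibroblast markers that followed *Xist*.

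**Figure D2:**
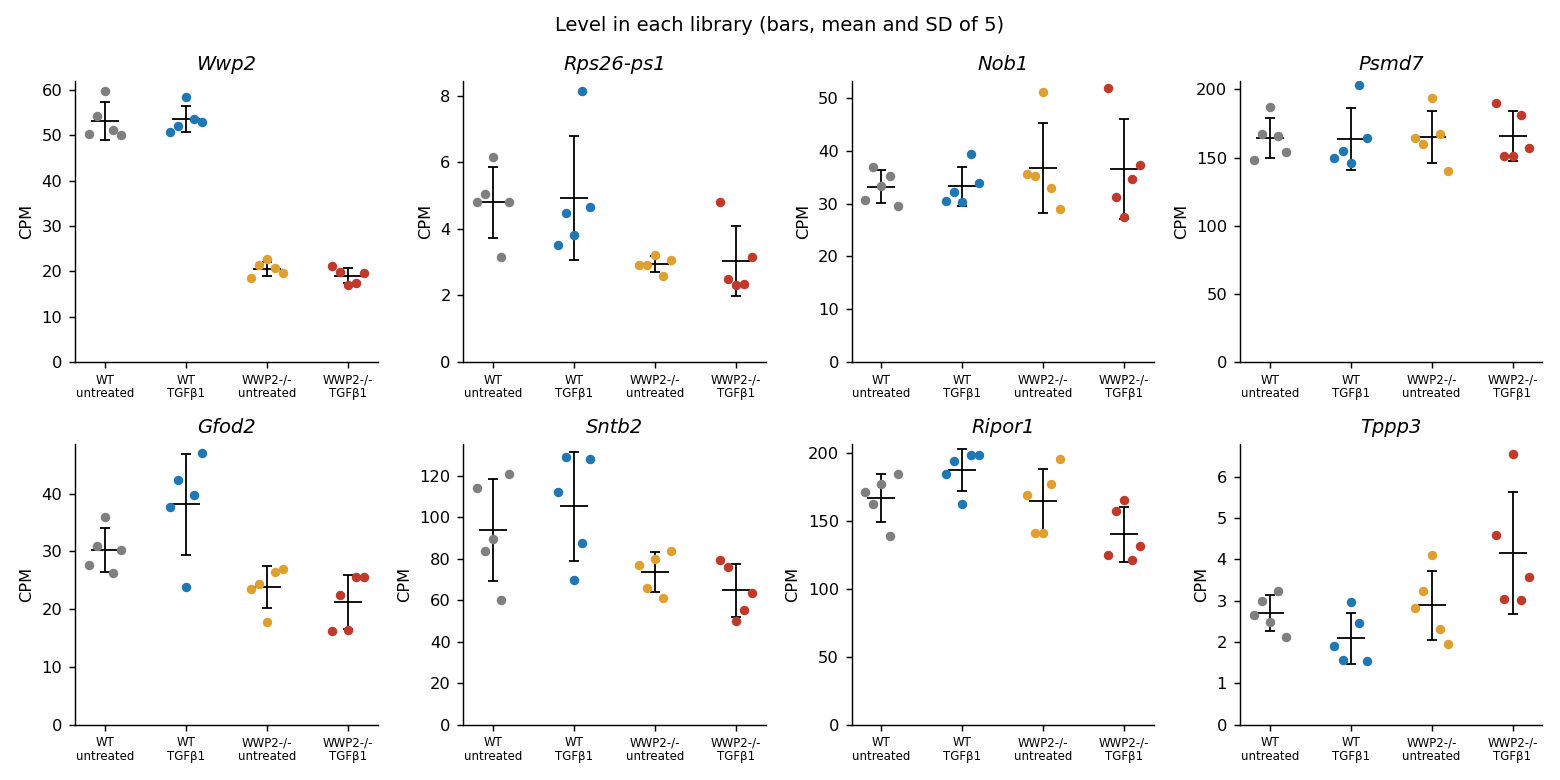
CPM in each of the 20 libraries (points; bars, mean and SD of 5) for *Wwp2*, the pseudogene inside it, the nearest gene on each side and the 4 called members. *Wwp2* separates the genotypes completely, *Nob1* and *Psmd7* do not, and *Tppp3* is the only called member whose treated groups do not overlap.

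*Gfod2*, which encodes a protein with a glucose-fructose oxidoreductase domain, lies 1677.7 kb below *Wwp2* on the minus strand (105713854 to 105758664). With TGFβ1, WT libraries had 37.7, 42.3, 23.8, 39.8 and 47.1 CPM and WWP2-/- libraries 16.2, 22.5, 16.3, 25.6 and 25.6 CPM. All but WT replicate 3 lay above every WWP2-/- library, and the fold change was −0.85 on the log2 scale (SE 0.178, adjusted *P* = 0.0135). Untreated, it was at 26.2 to 36.0 CPM in WT and 17.8 to 27.0 CPM in WWP2-/- libraries, a log2 fold change of −0.34 that did not pass (95% interval −0.72 to 0.03, adjusted *P* = 0.367). *Gfod2* was called in all 10 fits that left out 1 treated library, and also with *Xist* as a covariate (−0.85, adjusted *P* = 0.0447), but not when the fit held only the groups compared (−0.85, adjusted *P* = 0.057). Among treated libraries with *Xist*, 1 WWP2-/- library had 16.2 CPM and 4 WT libraries 37.7 to 47.1 CPM, whereas among those without it 4 WWP2-/- libraries averaged 22.5 CPM beside 23.8 CPM in 1 WT library. WT replicate 3, the treated WT library without *Xist*, therefore did not separate from the WWP2-/- libraries.

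The sequence before the start of *Gfod2* is shown because it was the gene called in the most alternatives and its RefSeq promoter was at hand. These are 193 bases of the minus strand, written 5′ to 3′ (chr8:105758665-105758857, GRCm38.p6, RefSeq), which lie upstream of the starts in both annotations. None of the 5 motifs searched below occurs in them, so that no letter is in capitals, and they hold 11 CpG dinucleotides at 59.1% GC.
Gfod2: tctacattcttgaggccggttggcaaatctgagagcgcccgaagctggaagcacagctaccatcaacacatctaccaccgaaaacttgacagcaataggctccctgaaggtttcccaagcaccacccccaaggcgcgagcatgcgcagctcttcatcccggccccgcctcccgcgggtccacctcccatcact

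*Sntb2* encodes a syntrophin, an adaptor of the dystrophin complex beneath the plasma membrane, and was the only called member within 1 Mb (416.7 kb away, 106935750 to 107019714). Treated WT libraries had 112, 129, 69.5, 87.3 and 128 CPM and treated WWP2-/- libraries 79.2, 75.8, 49.7, 55.3 and 63.2 CPM. Replicates 3, 4 and 5 of WWP2-/- were below all WT libraries, and WT replicate 3 was again the lowest of its group. This gave a log2 fold change of −0.70 (SE 0.198, adjusted *P* = 0.0429). It was called in 2 of 10 fits without 1 library, and with *Xist* as a covariate it was −0.38 (adjusted *P* = 0.186). Untreated, the log2 fold change was −0.35 (95% interval −0.76 to 0.06).

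*Ripor1* lies 1814.1 kb from *Wwp2* (105605255 to 105622219). It had 184, 194, 162, 198 and 198 CPM in treated WT libraries and 125, 157, 165, 121 and 131 CPM in treated WWP2-/- libraries. Only WWP2-/- replicate 3 reached the WT range. Its log2 fold change was −0.42 (SE 0.116, adjusted *P* = 0.0389), it was called in 3 of 10 fits without 1 library, and with *Xist* as a covariate it was −0.40 (adjusted *P* = 0.087). Untreated it was −0.02 (95% interval −0.26 to 0.23). One exon of *Ripor1* overlaps the annotated gene *Mir1966*.

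*Tppp3*, a tubulin polymerization-promoting protein, was the called member that was higher in WWP2-/- cells (1964.8 kb away, 105467493 to 105471526). Treated WT libraries had 1.90, 1.56, 2.97, 2.46 and 1.55 CPM and treated WWP2-/- libraries 4.58, 3.03, 6.54, 3.02 and 3.58 CPM. All 5 WWP2-/- libraries were above all 5 WT libraries, although the lowest and highest values of the groups were close. The log2 fold change was 0.99 (SE 0.262, adjusted *P* = 0.0337), it was called in 5 of 10 fits without 1 library, and with *Xist* as a covariate it was 0.97 (adjusted *P* = 0.0595). Among libraries without *Xist* the 4 WWP2-/- libraries had 3.02 to 6.54 CPM and the WT library 2.97 CPM. Untreated, the groups overlapped, with a log2 fold change of 0.09 (95% interval −0.45 to 0.64).

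Untreated, none of the 153 members was called by edgeR's quasi-likelihood test, when 0.725% of all genes were. At an unadjusted *P* below 0.05 there were 20 members (13.1%, against 14.9% of all genes), and DESeq2 called 3 (*B3gnt9*, *Slc9a5* and *Smpd3*), whereas it called 3.89% of all genes. Libraries did not overlap for *Tmem208*, *Slc9a5* and *Pla2g15*, a share below the 2.79% of all genes. These 3 and the non-overlapping genes given for TGFβ1 were named after their values were seen. *Slc9a5*, a sodium–proton exchanger gene, had 7.46, 7.82, 6.58, 9.07 and 7.36 CPM in untreated WT and 11.9, 9.70, 19.6, 10.7 and 10.7 CPM in untreated WWP2-/- libraries, a log2 fold change of 0.71 (SE 0.195, adjusted *P* = 0.102). *Pla2g15*, a lysosomal phospholipase, had 45.3 to 55.0 CPM in untreated WT and 31.2 to 41.1 CPM in untreated WWP2-/- libraries (log2 fold change −0.37, adjusted *P* = 0.247). It was −0.44 with TGFβ1 (adjusted *P* = 0.0706), where 3 of 5 WWP2-/- libraries were below all WT libraries.

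Among members with a mean of at least 1 CPM and an unadjusted *P* below 0.05, the largest fold changes untreated belonged to 3 genes of low or uneven level, none of which passed. *Smpd3* (neutral sphingomyelinase, 106252548 to 106337988) had 7.65, 6.81, 1.31, 0.636 and 9.96 CPM in untreated WT and 0.701, 1.58, 0.121, 0.650 and 0.697 CPM in untreated WWP2-/- libraries, a log2 fold change of −2.81 (SE 0.829, adjusted *P* = 0.125). With TGFβ1 it had 1.55, 1.48, 1.64, 10.1 and 1.06 CPM in WT and 0.354, 0.748, 0.101, 0.539 and 0.844 CPM in WWP2-/- libraries, so that all 5 WWP2-/- libraries were lower (−2.60, SE 0.828, adjusted *P* = 0.0664). Its values in WT varied among replicates far more than in WWP2-/- libraries. *Smpd3* shares exon bases with *Prmt7*, and without a stated strand setting reads of the shared bases cannot be assigned.

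*Ces2g*, a carboxylesterase, had 3.64, 3.41, 7.93, 1.41 and 4.44 CPM in untreated WT and 1.31, 2.08, 0.0805, 1.40 and 1.20 CPM in untreated WWP2-/- libraries (log2 fold change −1.77, SE 0.627, adjusted *P* = 0.209), and −1.44 with TGFβ1 (adjusted *P* = 0.159). *B3gnt9*, a glycosyltransferase, had 23.7, 20.4, 47.3, 4.04 and 28.4 CPM in untreated WT and 8.66, 3.85, 13.3, 8.62 and 7.34 CPM in untreated WWP2-/- libraries (−1.57, SE 0.489, adjusted *P* = 0.148), and −1.63 with TGFβ1 (SE 0.49, adjusted *P* = 0.0553). In all 3 genes WT replicate 4, the only untreated WT library without *Xist*, was at the level of the WWP2-/- libraries. Among untreated libraries without *Xist*, the mean of 3 WWP2-/- libraries and the value of that WT library were 0.975 and 0.636 CPM for *Smpd3*, 1.56 and 1.41 CPM for *Ces2g*, and 6.60 and 4.04 CPM for *B3gnt9*. Among those with *Xist* the means of 2 WWP2-/- and 4 WT libraries were 0.411 and 6.43, 0.696 and 4.85, and 11 and 30.0 CPM. Untreated, the difference between genotypes was thus not seen among libraries without *Xist*, which hold 1 WT library. With TGFβ1, WT replicate 3, the 1 treated WT library without *Xist*, was above all 4 such WWP2-/- libraries. It had 1.64 against 0.101 to 0.844 CPM for *Smpd3*, 2.39 against 1.07 to 1.73 CPM for *Ces2g* and 15.8 against 4.38 to 10 CPM for *B3gnt9*. Both splits rest on 1 WT library, so that neither shows whether the genotypes differ among libraries without *Xist*. Of the 2 untreated WWP2-/- libraries with *Xist*, replicate 1 also had *Ddx3y* (110 CPM) and replicate 3 was of the pair that stood apart.

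The hand-written role lists covered 82 of the 153 members, and only the list of signalling, cytoskeleton and cell death genes held called members, *Ripor1* and *Sntb2*, both lower with TGFβ1 (0 higher and 2 lower of 14). In the list of transcription and chromatin factors, 0 of 11 members passed even an unadjusted *P* of 0.05 in either genotype comparison, a threshold passed by 24.7% of all genes with TGFβ1 and 14.9% untreated. With TGFβ1 their log2 fold changes lay between −0.33 for *Atxn1l* and 0.43 for *Zfhx3*, with a median of 0.039. *Ctcf*, the insulator protein that shapes chromatin loops, had 72.9, 78.1, 65.4, 57.9 and 79.6 CPM in treated WT and 67.3, 70.6, 63.0, 70.4 and 69.2 CPM in treated WWP2-/- libraries. Its log2 fold change was −0.06 (95% interval −0.22 to 0.11). The 3 telomere proteins, *Terf2*, *Terf2ip* and *Acd*, lay between −0.16 and 0.12 with TGFβ1.

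The genes of RNA processing and translation lay mostly on the positive side, at small sizes, and none was called. With TGFβ1, 14 of 16 had a positive log2 fold change (median 0.188, from −0.05 for *Dhx38* to 0.44 for *Dus2*), and 3 had an unadjusted *P* below 0.05. Untreated, 15 of 16 were positive (median 0.190), and 5 had an unadjusted *P* below 0.05. Over all genes tested, 55.2% and 58.0% were positive, with medians of 0.050 and 0.076, and 24.7% and 14.9% had an unadjusted *P* below 0.05. *Dus2*, which makes dihydrouridine in transfer RNA, had 7.34, 7.95, 8.24, 9.39 and 7.64 CPM in treated WT and 14.5, 10.2, 9.04, 11.6 and 9.80 CPM in treated WWP2-/- libraries (log2 fold change 0.44, SE 0.155, adjusted *P* = 0.091). *Utp4*, a factor of ribosome assembly, had 43.5, 46.2, 38.1, 37.6 and 46.7 CPM in treated WT and 88.0, 48.3, 46.1, 56.2 and 47.4 CPM in treated WWP2-/- libraries (0.43, SE 0.201, adjusted *P* = 0.193). For both genes the highest WWP2-/- value was replicate 1 of the pair that stood apart. Without that pair, 12 of 16 were positive with TGFβ1 (median 0.140) and 10 of 16 untreated (median 0.075), so that the untreated median depended on these libraries.

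In the list of protein turnover and membrane traffic, 0 of 13 members were called, and with TGFβ1 8 were positive (median 0.086, from −0.81 for *Psmb10* to 0.48 for *Tmed6*). In the metabolism list 0 of 16 were called, while 6 had an unadjusted *P* below 0.05 with TGFβ1 (24.7% of all genes did) and the range was the widest of all lists, from −2.60 for *Smpd3* to 3.95 for *Hsd11b2*. *St3gal2*, a sialyltransferase of this list, had 286, 325, 144, 237 and 373 CPM in treated WT and 257, 134, 130, 123 and 130 CPM in treated WWP2-/- libraries (−0.82, SE 0.256, adjusted *P* = 0.0615). All treated WWP2-/- libraries except replicate 1 were below the WT libraries. Among the 9 adhesion, secreted and surface genes none was called, and 6 were negative with TGFβ1 (median −0.125).

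**Figure D3:**
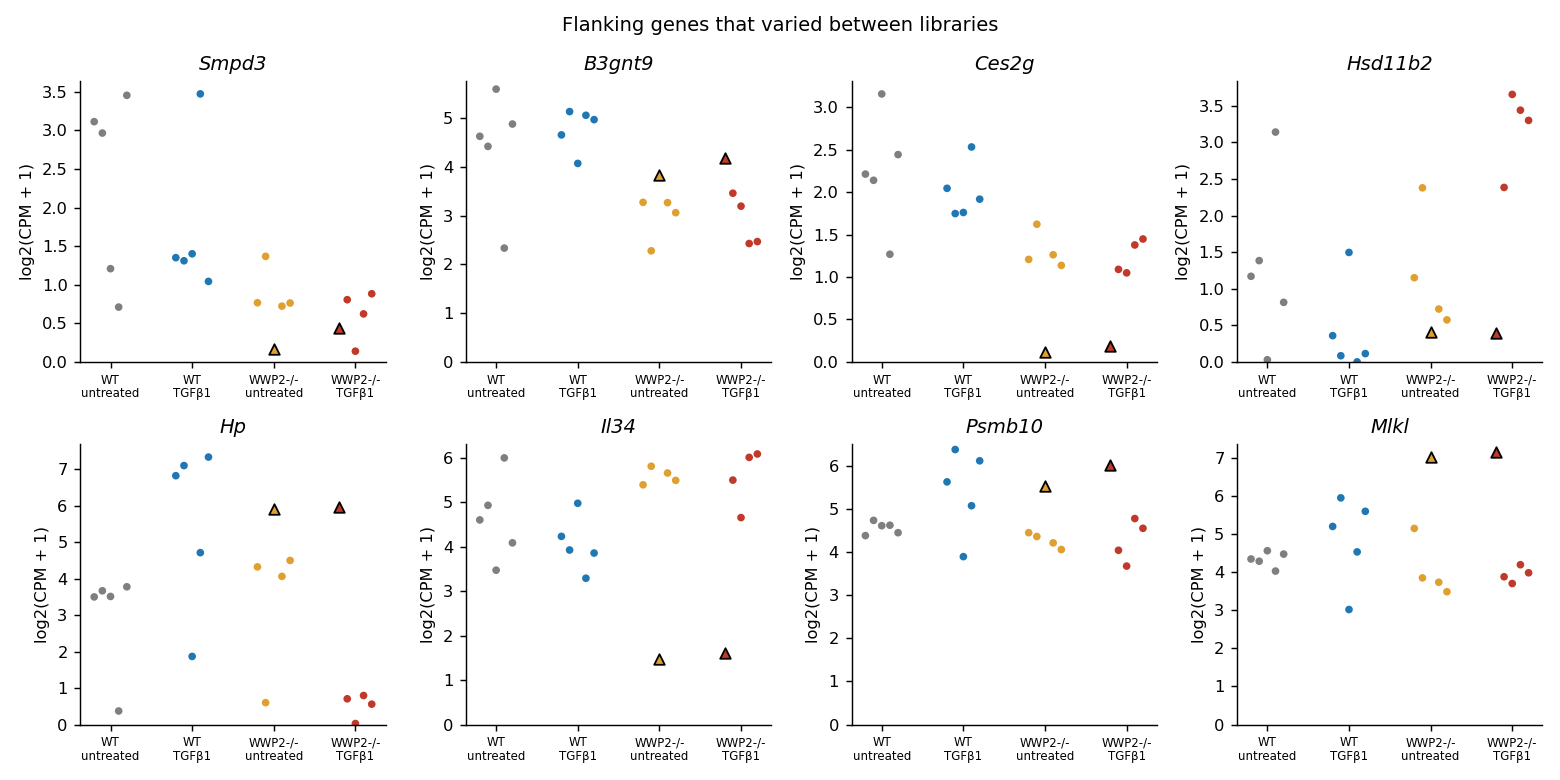
Level as log2(CPM + 1) in each library of 8 flanking genes that varied between libraries, chosen after their values were seen. Triangles mark untreated WWP2-/- replicate 3 and TGFβ1-treated WWP2-/- replicate 1, which lie apart from the other WWP2-/- libraries for *Il34*, *Psmb10* and *Mlkl*.

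A few flanking genes varied widely between replicates of a group. *Hsd11b2*, whose enzyme inactivates glucocorticoids (105518755 to 105523988), had 0.282, 0.0601, 1.82, 0 and 0.0817 CPM in treated WT and 0.320, 4.22, 11.6, 9.85 and 8.85 CPM in treated WWP2-/- libraries. WWP2-/- replicates 2 to 5 were above every WT library and replicate 1 was within the WT range. The log2 fold change of 3.95 (SE 1.32) did not pass (adjusted *P* = 0.0778). It was called by DESeq2, in 2 of 10 fits without 1 library and without the pair that stood apart. Untreated, WT replicate 4 was highest at 7.82 CPM, beside 0.0204 to 1.61 CPM in the other WT and 0.322 to 4.2 CPM in the WWP2-/- libraries (log2 fold change −0.73, adjusted *P* = 0.793). The interaction of genotype and treatment was 4.68 (SE 1.74, adjusted *P* = 0.549).

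*Hp*, the gene of haptoglobin, had the highest SD between libraries of all members and ran the other way in the same libraries. It had 10.3, 11.7, 10.4, 0.295 and 12.7 CPM in untreated WT, and 112, 136, 2.65, 25.2 and 160 CPM in treated WT libraries. WWP2-/- libraries had 19.0, 0.517, 59.0, 15.7 and 21.6 CPM untreated and 61.9, 0.632, 0.0202, 0.737 and 0.474 CPM with TGFβ1. The libraries with the lowest *Hp* in each group (WT replicate 4 and WWP2-/- replicate 2 untreated, WT replicate 3 and WWP2-/- replicate 3 treated) were those with the highest *Hsd11b2*. The summed level of 8 tubular epithelial markers with TGFβ1 was 36.6 to 198 CPM in WT and 12.1 to 546 CPM in WWP2-/- libraries, and that of 5 endothelial markers 28.8 to 156 and 7.61 to 141 CPM. Of the 8 tubular markers 5 averaged at least 1 CPM in treated WT and 7 in treated WWP2-/- libraries. Over the 20 libraries *Pax8* was at 6.37 to 195 CPM, *Cdh16* at 0.606 to 366 CPM and *Umod* at 0 to 0.171 CPM, and the part of these cells in either gene was not tested. No comparison of *Hp* passed in the fit of all libraries. The log2 fold changes between genotypes were −2.77 (95% interval −5.91 to 0.36) with TGFβ1 and 1.35 (−1.64 to 4.34) untreated. With TGFβ1 this verdict depended on WWP2-/- replicate 1, without which *Hp* was called (−7.53, adjusted *P* = 0.0131). It was also called without the pair of libraries that stood apart.

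*Il34*, a ligand of the macrophage receptor encoded by *Csf1r*, had 17.8, 14.2, 30.5, 8.79 and 13.5 CPM in treated WT and 2.04, 44.2, 24.2, 63.4 and 66.9 CPM in treated WWP2-/- libraries, a log2 fold change of 1.24 that did not pass (SE 0.751, adjusted *P* = 0.319). The 2.04 CPM of replicate 1 and the 1.77 CPM of untreated WWP2-/- replicate 3 were the lowest of the 20 libraries. The summed level of 6 macrophage markers with TGFβ1 was 56.6 to 393 CPM in WT and 68.8 to 3220 CPM in WWP2-/- libraries, and its part in this result was not tested. *Mlkl*, the effector of necroptosis, was at 142 and 128 CPM in the same pair of libraries and at 7.10 to 60.7 CPM in the other 18. *Psmb10*, a subunit of the immunoproteasome, was at 64.1 and 45.6 CPM in that pair, and reached 82.4 CPM in treated WT replicate 2. Without that pair *Il34* and *Psmb10* were called between genotypes with TGFβ1 and *Mlkl* was not, when 16.9% of all genes were called.

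TGFβ1 itself moved no flanking gene past the threshold. In WT cells 0 members were called by edgeR and 0 by DESeq2 (0% and 0.132% of all genes), and 6 members had an unadjusted *P* below 0.05 against 6.85% of all genes. In WWP2-/- cells 0 were called by edgeR and 0 by DESeq2 (0% and 0.255% of all genes), and 4 had an unadjusted *P* below 0.05 against 3.49% of all genes. *Wwp2* changed by 0.01 in WT (95% interval −0.16 to 0.18) and by −0.11 in WWP2-/- cells (−0.28 to 0.06) on the log2 scale.

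The members at a mean of at least 1 CPM with the largest fold changes upon TGFβ1 at an unadjusted *P* below 0.05 in WT cells were *Hp* (3.26, SE 1.53), *Dpep2*, a dipeptidase gene (−1.79, SE 0.752), and *Psmb10* (1.12, SE 0.453), with adjusted *P* between 0.655 and 0.720. *Dpep2* had 2.65, 2.57, 0.532, 4.30 and 1.64 CPM untreated and 0.625, 0.521, 0.998, 0.444 and 0.796 CPM with TGFβ1, and the groups overlapped through replicate 3. *Psmb10* had 19.9, 25.7, 23.5, 23.7 and 20.9 CPM untreated and 48.6, 82.4, 13.9, 32.8 and 68.6 CPM with TGFβ1, so that all treated libraries except replicate 3 were higher. In WWP2-/- cells they were *Bcar1*, the adaptor p130Cas of focal adhesions (−0.35, SE 0.117, adjusted *P* = 0.835), and the long noncoding RNA *9430091E24Rik* (−0.34, SE 0.162, adjusted *P* = 1). *Bcar1* had 174, 184, 146, 196 and 188 CPM untreated and 134, 127, 128, 152 and 156 CPM with TGFβ1 in WWP2-/- cells, and the groups overlapped through untreated replicate 3.

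The interaction of genotype and treatment was past the threshold for 0 members by edgeR and 0 by DESeq2 (0% and 0.049% of all genes), with 5 at an unadjusted *P* below 0.05 against 6.98% of all genes. Of those with a mean of at least 1 CPM, the largest were *Hsd11b2* (4.68), *Tppp3* (0.89, SE 0.367, adjusted *P* = 0.626) and *Ripor1* (−0.40, SE 0.164, adjusted *P* = 0.615). For *Tppp3* and *Ripor1*, the difference between genotypes with TGFβ1 is therefore not shown to differ from that without it.

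**Figure D4:**
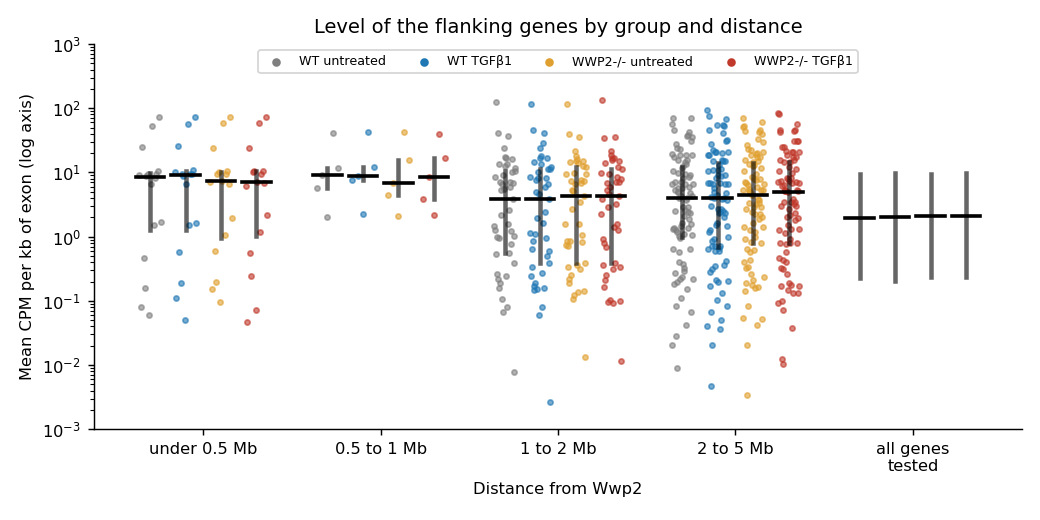
Mean level of each flanking gene in each group, as CPM per kb of exon on a log axis, by distance from *Wwp2* (points; thick lines, middle 50%; bars, median). The last column gives the same quartiles and medians for all genes tested, and the middle 50% of the 4 groups overlap at each distance.

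Levels between genes were compared per kb of annotated exon. The median over the 153 members was 4.78 CPM per kb in untreated WT, 4.39 in treated WT, 5.06 in untreated WWP2-/- and 5.07 in treated WWP2-/- libraries, beside 1.97 to 2.07 for all genes tested. Protein-coding members had medians of 5.93 to 6.67 CPM per kb, beside 4.28 to 4.42 for all protein-coding genes tested. The 21 members within 1 Mb had medians of 8.73 and 8.84 CPM per kb in WT and 7.09 and 7.19 in WWP2-/- libraries. The neighbourhood was thus expressed above the median gene in all groups.

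The highest level per kb belonged to *Atp6v0d1*, a subunit of the proton pump of lysosomes, at 124 ± 8.48 (untreated WT), 115 ± 26.3 (treated WT), 117 ± 8.73 (untreated WWP2-/-) and 133 ± 20.5 (treated WWP2-/-) CPM per kb (mean ± SD, n = 5). *Psmd7* was at 72.7 ± 6.68, 72.3 ± 10.2, 73.0 ± 8.56 and 73.4 ± 7.98 CPM per kb in the same order. *Cdh11*, the cadherin of mesenchymal cells, was at 56.4 ± 8.64, 93.5 ± 19.1, 69.8 ± 32.0 and 85.7 ± 68.7 CPM per kb. The mean of *Cdh11* exceeded that of *Psmd7* in the treated groups by less than 2 SD, and in treated WWP2-/- libraries it rested on replicate 3, at 1820 CPM beside 351 to 753 CPM in the other 4. *Wwp2* was at 5.99 ± 0.467 and 6.03 ± 0.326 CPM per kb in WT and 2.31 ± 0.183 and 2.14 ± 0.194 CPM per kb in WWP2-/- libraries.

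A feature that the choice of genes did not use is that many of them are arranged head to head, on opposite strands with starts within 1 kb. There were 23 such pairs, 15 of them between protein-coding genes. For 13 pairs both genes averaged at least 1 CPM, and the correlation between their deviations from the group means over 20 libraries had a median of 0.54 (from −0.27 to 0.94, positive in 10 of 13). Adjacent members in general, 120 pairs, had a median of 0.084, and all 7260 pairs among 121 members had 0.026. These values share libraries and depth and are given without a test. Without the pair of libraries that stood apart (18 libraries), the medians were 0.45, 0.175 and 0.038, and 11 of 13 were positive.

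**Figure D5:**
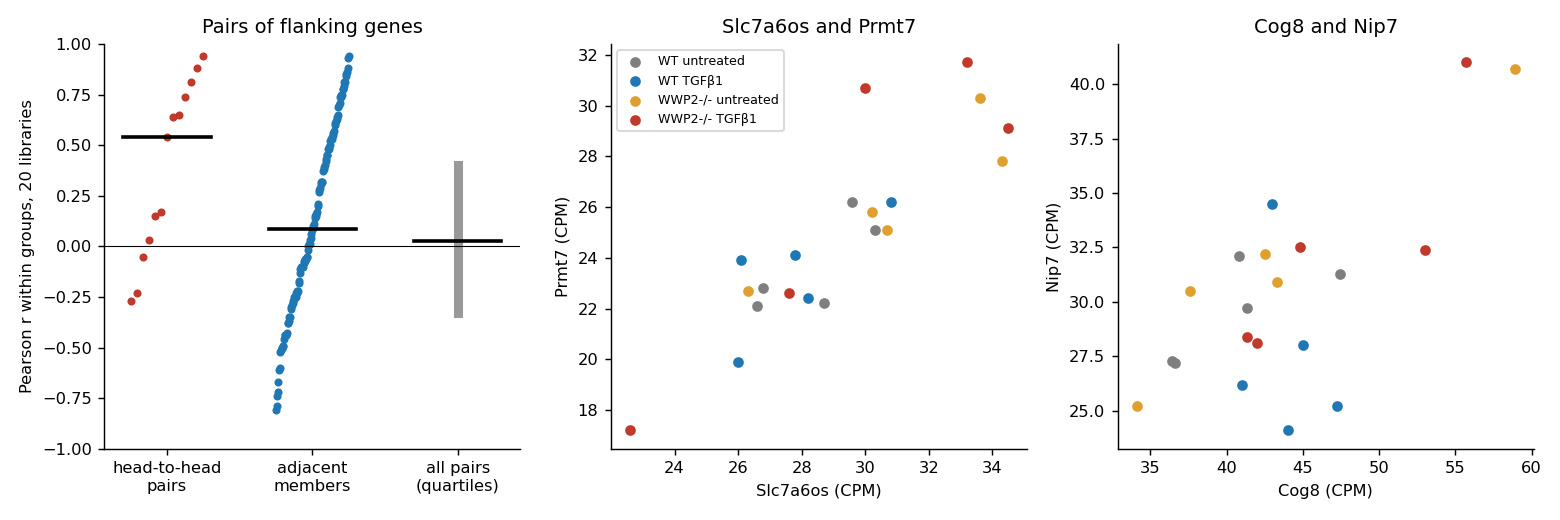
Left, Pearson correlation of deviations from group means over 20 libraries for 13 head-to-head pairs and 120 adjacent pairs (points; bars, medians), with the quartiles of all 7260 pairs. Middle and right, CPM of *Slc7a6os* with *Prmt7* and of *Cog8* with *Nip7* in each library, where *Prmt7* rises with *Slc7a6os* in all 4 groups. The 2 highest points of *Cog8* and *Nip7* are the pair of WWP2-/- libraries that stood apart.

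The pair with the highest correlation, *Il34* and the antisense gene *Gm15895* (0.94), shares exon bases, and its reads cannot be told apart without a strand setting. *Slc7a6os* and *Prmt7*, an arginine methyltransferase gene, have annotated starts 1 base apart and a correlation of 0.88 (0.91 over 18 libraries). *Slc7a6os* had 26.1, 27.8, 26.0, 30.8 and 28.2 CPM in treated WT and 30.0, 27.6, 22.6, 33.2 and 34.5 CPM in treated WWP2-/- libraries. *Prmt7* had 23.9, 24.1, 19.9, 26.2 and 22.4 CPM and 30.7, 22.6, 17.2, 31.7 and 29.1 CPM in the same libraries, and both genes were lowest in WWP2-/- replicate 3. The telomere protein gene *Acd* and the polarity gene *Pard6a* had 0.81 (0.76 over 18 libraries), and *Tradd*, an adaptor of the TNF receptor, and *Fbxl8* had 0.64 (0.70). *Cog8*, of the Golgi tethering complex, and *Nip7* had 0.74 (0.50). *Chtf8* and *Utp4* had 0.54 but −0.20 over 18 libraries, so that this correlation rested on the pair of libraries left out. The arrangement alone did not go with a high correlation, since *Kars* and *Terf2ip* had −0.27 (0.15 over 18 libraries) and *Dhx38* and *Txnl4b* −0.05 (0.26).

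The stretches between the starts of 3 such pairs of protein-coding genes and of 1 such pair with an antisense gene follow. They are shown because in each a single short sequence separates 2 genes read in opposite directions. All are written 5′ to 3′ on the plus strand (GRCm38.p6, RefSeq) and trimmed to the bases that lie in no annotated gene. Capitals mark any of 5 motifs searched on both strands. The ETS-type motif, bound by a large family of transcription factors, was taken as CCGGAAG. The GC box, which factors of the Sp family recognise, was taken as GGGCGG. The other three were the CCAAT box, the TATA box found in a minority of promoters and taken as TATAAA, and a short SMAD-type motif, named for the mediators of TGFβ signalling and taken as CAGAC. The stretches are chr8:104534638-104534688, chr8:106893602-106893635, chr8:107056738-107056876 and chr8:105566065-105566179.
Nae1/Car7: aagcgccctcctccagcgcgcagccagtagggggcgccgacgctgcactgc
Chtf8/Utp4: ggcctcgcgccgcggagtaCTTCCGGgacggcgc
Cog8/Nip7: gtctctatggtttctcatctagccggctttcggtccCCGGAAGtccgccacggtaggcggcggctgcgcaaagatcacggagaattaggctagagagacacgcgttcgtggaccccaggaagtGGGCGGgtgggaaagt
Atp6v0d1/Gm38250: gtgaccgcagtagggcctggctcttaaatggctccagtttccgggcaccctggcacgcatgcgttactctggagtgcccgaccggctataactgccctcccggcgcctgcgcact

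The first 3 stretches have 74.5%, 79.4% and 60.4% GC and hold 6, 7 and 13 CpG dinucleotides in 51, 34 and 139 bases. An ETS-type match stands in 2 of them and a GC box in 1. The stretch of *Nae1* and *Car7* and the fourth stretch, of 115 bases, hold none of the 5 motifs. The fourth separates *Atp6v0d1* from an antisense gene at 0.816 CPM, with a correlation of 0.07 between them. *Nae1*, a subunit of the enzyme that activates NEDD8, averaged 58.5 CPM and *Car7*, a carbonic anhydrase gene, 1.09 CPM, and their correlation was 0.65 despite the difference in level.

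RefSeq promoter windows of 300 bases (250 before the start and 50 after it) were matched by symbol to 96 of the 153 members. CCGGAAG or its reverse was in 20.8% of these 96 windows, in 14.6% of 16612 windows of genes tested and in 8.9% of all 32851 windows in the table. Each member was taken with 1 window, whereas a gene may have several windows in the larger sets. It was in 8 of 22 windows (36.4%) of members in a protein-coding head-to-head pair and in 12 of 74 (16.2%) of the other members. The same split gave 13.6% and 51.4% for CAGAC, 68.2% and 60.8% for GGGCGG, 27.3% and 33.8% for CCAAT, and 4.5% and 5.4% for TATAAA. The median number of CpG dinucleotides was 23.5 and 18. None of these differences was tested. GGGCGG was in 62.5% of member windows and 56.7% of those of genes tested, CCAAT in 32.3% and 36.9%, TATAAA in 5.2% and 8.3%, and CAGAC in 42.7% and 48.4%. Member windows had a median GC content of 60.7%, beside 59.7% for genes tested. A match describes the letters in a window and does not show binding, and windows of 1 head-to-head pair overlap and are not independent.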

How the data were processed

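Poly-A RNA of 20 libraries was sequenced in read pairs by the authors, aligned to GRCm38 (the processing notes name GRCm38 and mm10) with STAR and counted on exons with featureCounts. The deposited values are counts per Ensembl gene without normalization. The strand setting was not given in the sources used here. Positions, exon lengths and names came from GENCODE release M21 on GRCm38, which gave a position to 20356 of 20407 genes tested. A count of 0 allows up to 3 counts, and such limits cover counting error only.

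Groups were taken from the labels. Genes reaching 5 counts in 5 or more libraries were kept and normalized by TMM, and all 20 libraries and 4 groups were fitted together with glmQLFit and glmQLFTest (edgeR 4.0.16, limma 3.58.1, R 4.3.3), with Benjamini-Hochberg adjustment over all genes tested. Standard errors and 95% intervals come from the same fit. The procedure was tested on simulated data. DESeq2 1.42.0, other filters, a replicate block, *Xist* as a covariate, only the groups compared and each library left out in turn were alternatives. Leaving out untreated WWP2-/- replicate 3 with treated WWP2-/- replicate 1 was added after seeing the data.

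Distance is between the nearest edges of a gene and *Wwp2*. Named genes are *Wwp2*, the 5 members nearest on each side with a mean of at least 1 CPM, every called member or, where none was called, the 3 of largest fold change at that mean and an unadjusted *P* below 0.05, the 3 highest per kb, and at most 4 of each role list. The members, the role lists and the marker lists were chosen with earlier results of these data known. No list was tested as a set. No 2 libraries were identical.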

Additional observations from a re-analysis of the deposited data

Results flagged for a closer look

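The members examined were those named for nearness, for a call or large fold change, or for level per kb. Members named otherwise, such as *Mlkl* and *Il34*, were not examined. Of 100 groups of 5 libraries, 15 held a library past Dixon's 95% critical value of 0.71. The statistic is the gap to the nearest of the others as a share of the range. Chance flags about 1 in 20 groups of members chosen without regard to their values. Some members were named for large fold changes in these same data, and all share the same libraries, so that this rate is no measure of chance here. Untreated WWP2-/- replicate 3 was high for *Terf2* (47.3 CPM, others 29.1 to 32.0), *Dhx38* (87.2, others 51.7 to 58.5) and *Psmb10* (45.6, others 15.7 to 20.9). Treated WWP2-/- replicate 1 was high for *Hp* (61.9 CPM, others 0.0202 to 0.737) and *Psmb10* (64.1, others 11.8 to 26.5). Treated WWP2-/- replicate 3 was high for *Zfhx3* (89.4 CPM, others 30.0 to 42.4) and *Cdh11* (1820, others 351 to 753), and untreated WWP2-/- replicate 2 for *Hsd11b2* (4.2, others 0.322 to 1.22).

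Among WT libraries, treated replicate 4 was high for *Smpd3* (10.1 CPM, others 1.06 to 1.64) and *Atp6v0d1* (290, others 177 to 197). Treated replicate 3 was high for *Hsd11b2* (1.82 CPM, others 0 to 0.282) and low for *Bcar1* (127, others 141 to 145). Untreated replicate 4 was low for *Hp* (0.295 CPM, others 10.3 to 12.7) and high for *Hsd11b2* (7.82, others 0.0204 to 1.61), and untreated replicate 3 was low for *Bcar1* (97.3, others 141 to 157).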

How the results depend on the processing

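With TGFβ1 the number of members called between genotypes moved from 4 to 14 with DESeq2's Wald test, to 1 without a low-count filter, to 1 with *Xist* as a covariate, to 0 with only the groups compared (*Gfod2* included), to 0 at an adjusted *P* of 0.01, and to 21 without the pair of WWP2-/- libraries that stood apart. Leaving out 1 library gave 1 to 13. It was 13 without WWP2-/- replicate 1, 12 without WT replicate 3, 2 without WWP2-/- replicate 4 or WT replicate 4, and 1 without WWP2-/- replicate 5 or WT replicate 1, 2 or 5. Untreated, the number moved from 0 to 3 with DESeq2's Wald test and was 0 to 5 without 1 library, with 5 without WT replicate 4.

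The replicate block gave 3 members with TGFβ1 and 0 in the other comparisons, and *Ripor1* lost its call under it (adjusted *P* = 0.0766). Libraries of equal number were not taken as pairs, since the correlation of their deviations was not above 0.1 in every pair. It was −0.25 to 0.32 between treatments in WWP2-/- cells, −0.53 to 0.52 in WT cells, −0.50 to 0.16 between genotypes with TGFβ1 and −0.01 to 0.45 untreated. The own number was the best match in 0, 1, 1 and 4 of 5 libraries in that order, so that untreated libraries of equal number deviated partly together. Between treatments, the best match of an untreated library had 0.25 to 0.95 in WWP2-/- and 0.42 to 0.76 in WT cells. The closest were WWP2-/- untreated replicates 3 and 2 with treated replicates 1 and 5 (0.95 and 0.89), and WT untreated replicate 4 with treated replicate 3 (0.76). Whether such libraries share a culture was not tested, and no fit paired them. Any variation they share counts as error in the TGFβ1 comparisons. The TGFβ1 comparisons within a genotype and the interaction stayed at 0 members in every alternative, leaving out 1 library included (0 to 0). The median log2 fold change within 1 Mb with TGFβ1 moved from 0.022 to 0.098 when members within 2 Mb were taken, and was −0.066 (without WWP2-/- replicate 3) to 0.089 (without WT replicate 4) without 1 library. Untreated it was −0.015 without the pair of libraries, and 0.009 (without WWP2-/- replicate 3) to 0.143 without 1 library. The cause of these shifts was not tested.

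For the named genes, 58 fold changes were recomputed under 1058 alternatives. No called value changed sign, and 54 of 965 uncalled values did. The spread between libraries and the number of libraries, 5 a group, limit what can be seen here, and depth limits the values of genes at a few counts.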
